A study of Homo sapiens with 9 samples.

Results

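The comparison described here is that of HEK293 cells depleted of MOF by RNA interference against HEK293 cells that received no treatment. It was made from the arrays titled as knockdown and as wild type, 3 of each, which are 6 of the 9 arrays of the series. HEK293 is an established human embryonic kidney line. The remaining 3 arrays are of cells transfected with a plasmid that encodes MOF. They entered the same model, and their values are given beside some results. All 3 groups were grown in one medium with serum and antibiotics, and both altered groups were transfected while the wild type cells were not. The labels mention a control with an unrelated double-stranded RNA, which was not analysed here, so the depletion of MOF and the transfection itself cannot be told apart in this comparison. The sources used here give neither the time from transfection to RNA extraction nor the sequence of the interfering RNA. Nothing in the labels shows that the replicates were separate cultures. Each p-value therefore reflects only how these samples scatter, and that scatter could be technical.

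MOF is the protein made from KAT8, the enzyme that places most acetyl groups on lysine 16 of histone H4, a mark of open chromatin. It works in 2 complexes. The MSL complex carries out the bulk acetylation of H4, and the NSL complex sits at promoters of widely expressed genes, with the sugar transferase OGT among its subunits. The title of the series links altered MOF levels to a defective response to DNA damage.

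Each array carried 54675 probe sets. The deposited signal is on a linear scale and was analysed as log2(signal + 1). A probe set was tested when its mean log2 value reached the median over the whole array (signal near 188), which left 27307 probe sets. Where a gene had several, the brightest stood for it, and this gave 12036 genes. A gene is said to have risen or fallen where the limma adjusted p was below 0.05 in a model with a term for the replicate 1 arrays, and a fold change is on the log2(signal + 1) scale. Median signals of the arrays ran from 189.4 to 219.2. Correlations of log2 signal between arrays of a group, over all probe sets and so with many dim ones, were 0.926 to 0.927 in wild type and 0.929 to 0.934 in knockdown. The ratio of 3' to 5' signal of GAPDH, a measure of RNA integrity, was 0.99 to 1.035 in wild type and 0.996 to 1.111 in knockdown. That of ACTB was 1.392 to 1.425 in wild type and 1.207 to 1.306 in knockdown, so these groups did not overlap, and its part in the results was not tested. Of 6 blood markers and 8 endothelial markers on the array, 1 each was above the brightness limit, and the summed blood signal was 521 to 807 in wild type and 346 to 584 in knockdown. The kidney markers summed to 6446 to 7040 in wild type and 7226 to 7681 in knockdown, with 5 of 12 above the limit, and the adrenal and neural crest markers to 5290 to 6115 and 8116 to 8709, with 2 of 7. The fibroblast markers (3 of 9 above the limit) summed to 3389 to 3580 in wild type and 2454 to 2975 in knockdown, and the muscle markers (1 of 8) to 2526 to 3216 and 1610 to 2203. In these last 4 lists the groups did not overlap, and their part in the results was not tested.

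KAT8 itself was read by 2 tested probe sets. The brighter gave 2909.5, 3796.8 and 3248.7 on the wild type arrays and 432.0, 705.8 and 517.1 on the knockdown arrays. The groups lay far apart, with a log2 fold change in this model of -2.61 (SE 0.13) and a limma adjusted p of 5.36e-07 (n = 3 per group), and the knockdown mean was 16.6% of that of wild type. By an exact permutation test, two-sided, p was 0.1, and no smaller p can come from 3 against 3 arrays. The dimmer probe set fell by 1.58 on the log2 scale (SE 0.25). Its knockdown signals lay below the medians of their arrays, near the limit of measurement, so the size of that fall is uncertain. Of the 3 subunits of the MSL complex, MSL1, its scaffold, rose 1.5-fold (log2 fold change 0.59, SE 0.06), and the other two were not called. Of 8 NSL subunits 3 rose and none fell. The list medians were alike after knockdown and after overexpression. They were 0.187 and 0.188 for the MSL subunits and 0.134 and 0.140 for the NSL subunits. OGT rose by 0.51 (SE 0.07), KANSL2 by 0.29 (SE 0.07) and KANSL1 by 0.26 (SE 0.07), and KANSL1 missed the threshold in 4 of the 6 fits with an array omitted.

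Depletion of MOF was followed by changes in a large share of the measured transcripts, most of them small. Of the probe sets tested, 7706 (28.2%) passed the threshold, 3588 (13.1%) higher and 4118 (15.1%) lower. Counted as genes, 4019 (33.4%) passed, 1556 (12.9%) higher and 2463 (20.5%) lower. These 2 shares are the background for every list count below that comes from this fit. The median size was 1.35-fold among the genes that rose and 1.37-fold among those that fell. At least 2-fold changes were fewer: 96 genes rose and 231 fell by that much, and 4 rose and 10 fell at least 4-fold. With no term for the replicate 1 arrays (called the batch term below) 4289 probe sets (15.7%) passed, and all of them were among the 7706. Of these 1861 were higher and 2428 lower. In the 6 fits with an array omitted 20.4% to 22.8% of probe sets passed. List counts from such fits are to be read against these smaller numbers, since fewer calls were made over all probe sets too. Over all genes tested the median log2 fold change was -0.04. The deposited signals are scaled to one mean per array, which hides any change in the amount of RNA per cell, and in such bulk samples fewer cells of a type and less RNA per cell cannot be told apart.

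Falls outnumbered rises among protein-coding genes (13.2% higher, 20.7% lower) and more so among long noncoding RNA genes (7.2% higher, 20.3% lower). Probe sets with no gene symbol went the other way, with 14.5% higher and 8.9% lower. Counted likewise as probe sets, those with 1 symbol had 12.8% higher and 15.9% lower. The share of genes called rose with brightness, from 5.4% higher and 13.4% lower in the dimmest of 4 equal bins of genes to 17.6% and 23.9% in the brightest. Brighter signals vary less between arrays, so smaller differences can pass there.

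**Figure D1:**
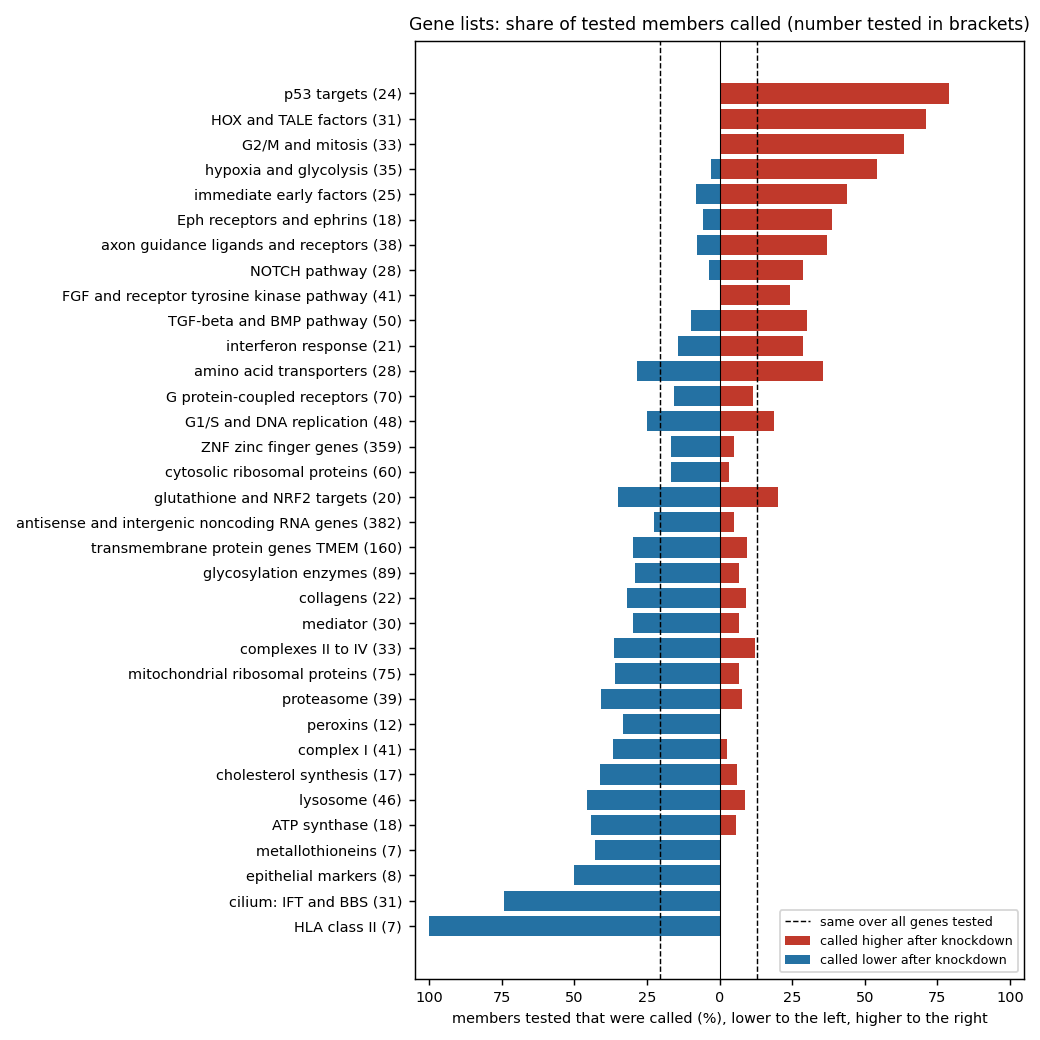
Share of the tested members of 34 gene lists that were called higher (red, to the right) or lower (blue, to the left) after knockdown, in percent, with the number of tested members in brackets. The dashed lines mark the same shares over all genes tested, 12.9% higher and 20.5% lower. HLA class II and cilium genes reach farthest to the left and p53 targets and HOX genes farthest to the right.

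HLA class II genes fell together and had the lowest median of the 110 lists counted. These genes encode the surface receptors that present peptides to helper T cells, and the proteins that load them. Of 12 listed genes 7 were bright enough to be tested, and all 7 fell at least 2-fold, with a median log2 fold change of -1.77. Each of them kept its call under every alternative in which it was tested. HLA-DPA1, the alpha chain of the DP receptor, read 3464.3, 3392.8 and 2913.2 in wild type and 971.4, 794.3 and 1126.5 after knockdown (log2 fold change -1.77, SE 0.12). HLA-DRB1, a DR beta chain, read 992.7, 676.8 and 882.1 against 175.7, 171.3 and 239.3 (log2 fold change -2.12, SE 0.20). For both genes every knockdown array was less than every wild type array by a wide margin. The knockdown signals of HLA-DRB1 lay near the medians of their arrays (206.7 to 219.2), so the size of its fall is uncertain. Of the 7 genes 2 had a mean log2 signal at or above the 75th percentile of all probe sets. With 64 added to the signal in place of 1 the list median was -1.50.

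The peptide exchange factor HLA-DM fell in both its chains. HLA-DMA read 433.6, 493.0 and 447.0 in wild type and 226.8, 74.1 and 84.9 after knockdown, with the replicate 1 array the highest of the knockdown group. Its log2 fold change was -2.01 (SE 0.32), of uncertain size because these knockdown signals were near or below the array medians. HLA-DMB fell by 1.43 (SE 0.21). The log2 fold change was -1.78 (SE 0.23) for HLA-DPB1, -1.12 (SE 0.14) for HLA-DQB1 and -1.08 (SE 0.24) for HLA-DOA, which restrains HLA-DM. After overexpression none of the 7 passed the test against wild type, with a list median of 0.24. The 5 untested members had means below the limit. The brightest probe sets of CD74, the invariant chain, and HLA-DRA, the DR alpha chain, read 32.1 to 72.8 and 91.0 to 155.7 in wild type, and HLA-DQA1, HLA-DOB and CIITA, the class II transactivator, were no brighter than 155.0 there. Class II sequences vary between people and between copies, so probe sets can read more than 1 of these genes. Of the factors that bind class II promoters, RFXAP fell by 0.54 (SE 0.09) and RFX5 by 0.26 (SE 0.07, limma adjusted p = 0.0149). These genes were not chosen by rule, and other such factors, the NF-Y subunits among them, are not described here. Their part in the class II falls was not tested. Among 15 genes of class I and antigen presentation 3 rose, and HLA-E rose by 0.36 (SE 0.06). The 1 fall there was lost with the replicate block, with no batch term and whichever of the 6 arrays was omitted.

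Class II promoters are known for an X element, bound by RFX, beside a Y element, an inverted CCAAT box bound by NF-Y. The sequences of the 2 HLA-DM promoters are shown because both genes fell, from 250 bases before to 50 bases after the RefSeq start on GRCh38.p14, 5′ to 3′ on the strand of the gene, with ATTGG and its reverse complement CCAAT in capitals.
HLA-DMA: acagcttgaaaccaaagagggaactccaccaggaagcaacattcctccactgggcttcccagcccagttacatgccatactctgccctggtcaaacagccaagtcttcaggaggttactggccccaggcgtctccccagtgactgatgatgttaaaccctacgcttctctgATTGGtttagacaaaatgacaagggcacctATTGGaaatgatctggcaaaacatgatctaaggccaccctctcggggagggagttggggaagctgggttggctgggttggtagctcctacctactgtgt
HLA-DMB: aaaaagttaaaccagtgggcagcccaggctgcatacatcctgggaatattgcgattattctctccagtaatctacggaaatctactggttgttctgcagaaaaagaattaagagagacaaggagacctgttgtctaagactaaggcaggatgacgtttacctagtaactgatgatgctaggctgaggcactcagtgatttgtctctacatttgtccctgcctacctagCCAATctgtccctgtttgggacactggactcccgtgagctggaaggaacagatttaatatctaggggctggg
The HLA-DMA window lies at chr6:32953048-32953347 on the minus strand and holds 2 matches, at positions -79 and -49 from the start. The HLA-DMB window lies at chr6:32940979-32941278 on the minus strand and holds 1 match, at position -22, on the opposite strand. There the strand of the gene reads CCAAT, which is not the inverted form described for the Y element. Searched on both strands, ATTGG was in 85.7% of the promoters of the tested class II genes (6 of 7), in 37% of those of all genes tested that had a sequence and in 35.7% of the 27305 promoters in the table. These are matches of letters, given as a description, and not a count of Y elements.

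**Figure D2:**
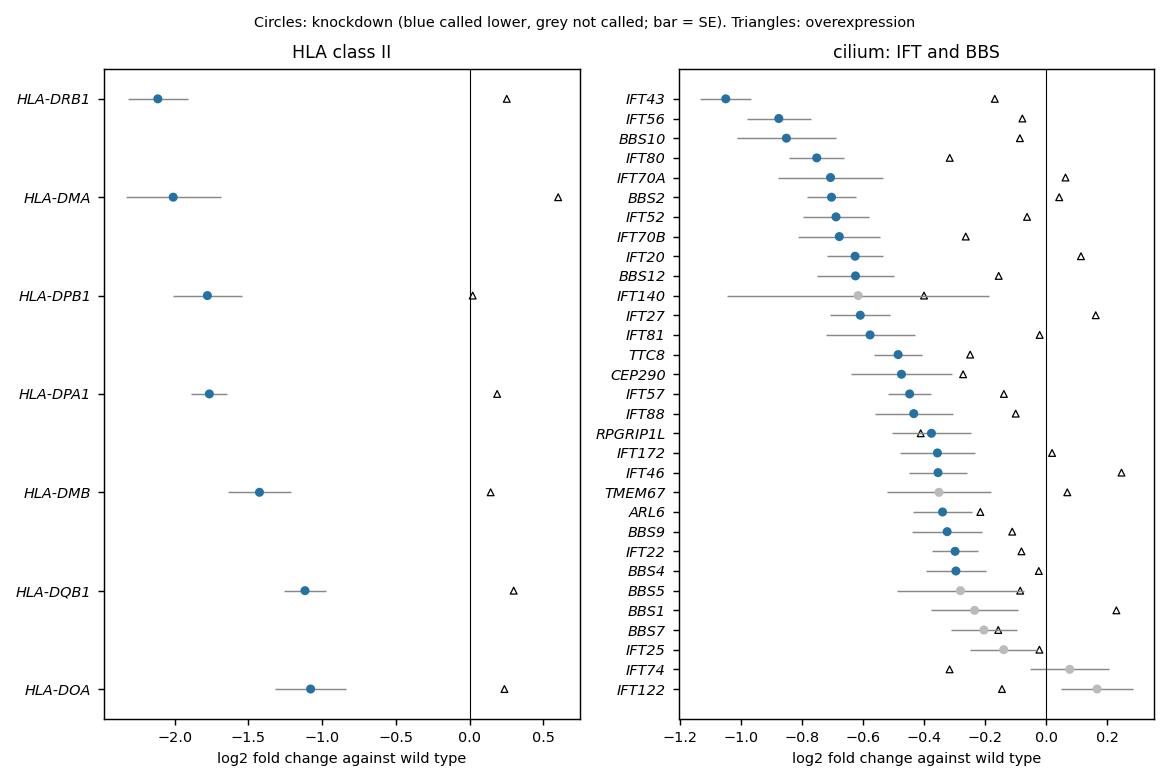
Log2 fold change against wild type of each tested HLA class II gene (left) and each tested gene of the cilium list (right). Circles are knockdown, blue where called lower and grey where not called, with bars of 1 SE; triangles are overexpression. All 7 class II genes and 23 of 31 cilium genes were called lower.

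The genes of intraflagellar transport and of the BBSome also fell, by smaller amounts. These proteins build the primary cilium, a sensory projection of the cell, and carry its cargo. All 31 listed genes were tested; 23 fell and none rose, with a median log2 fold change of -0.45. IFT43, a subunit of the retrograde transport complex, read 5681.2, 5132.9 and 4589.9 in wild type and 2750.0, 2544.9 and 2154.9 after knockdown (log2 fold change -1.05, SE 0.08, limma adjusted p = 6.38e-06). IFT80, of the anterograde complex, read 7144.4, 7407.2 and 8303.2 against 3852.5, 5244.2 and 4557.3 (log2 fold change -0.75, SE 0.09). BBS2, a BBSome subunit, read 3526.3, 3401.7 and 3214.4 against 2036.7, 2042.6 and 2147.3 (log2 fold change -0.70, SE 0.08). In each of these 3 genes the groups did not overlap, which held for 39% of all genes tested in either direction. IFT56 fell by 0.88 (SE 0.11), BBS10 by 0.85 (SE 0.16), IFT52 by 0.69 (SE 0.11) and IFT20 by 0.63 (SE 0.09). IFT122 and IFT74 had values above 0 (0.17 and 0.08) and were not called. The count of 23 was 12 with no batch term, 20 with the replicate number as a block, 14 without wild type replicate 1 and 15 without knockdown replicate 1, and no list member rose in any of these fits.

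RFX factors bind a longer element, the X box, in promoters of cilium genes. Its consensus was in 14.3% of the promoters of the tested cilium genes (4 of 28), in 1.64% of those of all genes tested and in 1.3% of all promoters in the table. The 4 were IFT57, IFT70A, IFT70B and IFT122, of which all but IFT122 fell. IFT70A and IFT70B are near-identical copies, and their probe sets may read both. The promoters of IFT57 (chr3:108222375-108222674, minus strand) and IFT70B (chr2:177552747-177553046, minus strand) are shown with the match in capitals.
IFT57: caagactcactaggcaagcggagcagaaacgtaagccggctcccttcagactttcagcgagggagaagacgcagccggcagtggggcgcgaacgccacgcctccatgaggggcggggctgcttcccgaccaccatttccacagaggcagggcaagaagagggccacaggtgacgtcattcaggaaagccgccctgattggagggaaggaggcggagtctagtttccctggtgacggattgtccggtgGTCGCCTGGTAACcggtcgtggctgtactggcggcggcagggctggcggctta
IFT70B: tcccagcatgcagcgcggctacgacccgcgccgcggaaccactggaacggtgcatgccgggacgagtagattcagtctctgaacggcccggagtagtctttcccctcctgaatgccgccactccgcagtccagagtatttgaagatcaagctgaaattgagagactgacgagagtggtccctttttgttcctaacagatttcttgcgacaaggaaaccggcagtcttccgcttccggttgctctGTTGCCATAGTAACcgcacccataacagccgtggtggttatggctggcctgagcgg
In both the match begins just before the start of transcription, at positions -3 and -6. IFT57 fell by 0.45 (SE 0.07) and IFT70B by 0.68 (SE 0.13).

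CDH1 and EPCAM, both genes of epithelial adhesion, fell. CDH1, which encodes E-cadherin, the adhesion protein of epithelial junctions, read 1836.1, 1720.5 and 2120.8 in wild type and 512.7, 555.7 and 556.7 after knockdown. The groups did not overlap (log2 fold change -1.80, SE 0.13), and the limma adjusted p was 3.45e-06. Another CDH1 probe set was too dim to be tested, and its groups overlapped. It read 265.5, 22.2 and 249.8 in wild type and 177.1, 198.0 and 130.3 after knockdown. EPCAM, another epithelial surface protein, read 589.9, 927.9 and 747.1 against 202.7, 183.6 and 284.3 (log2 fold change -1.75, SE 0.21). Of 8 tested epithelial markers 4 fell and none rose. KRT8, an intermediate filament of simple epithelia, fell by 0.57 (SE 0.14), and its partner KRT18 by 0.20 (SE 0.07), a call that 5 of the 6 fits with an array omitted did not make. Of the 21 epithelial markers on the array 13 were below the brightness limit, among them the claudins CLDN3, CLDN4 and CLDN7. Of 11 tested genes of claudins and tight junctions 4 rose and none fell, though none rose with no batch term, and of 10 classical and desmosomal cadherins 2 rose and 2, CDH1 included, fell. Mesenchymal markers showed no common direction, with 2 of 13 higher and 3 lower. VIM had a log2 fold change of 0.02 (SE 0.06) and CDH2, which encodes N-cadherin, of 0.20 (SE 0.07), neither called. Among the repressors of CDH1, TWIST1 rose by 0.38 (SE 0.08) and SNAI2 fell by 0.58 (SE 0.14). SNAI1 was below the brightness limit. TWIST1 and SNAI2 were not chosen by rule, and other repressors of CDH1 are not described here. The part of such repressors in the fall of CDH1 was not tested. CDH1 was also lower after knockdown than after overexpression, with a difference of -1.40 (limma adjusted p = 1.48e-05).

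**Figure D3:**
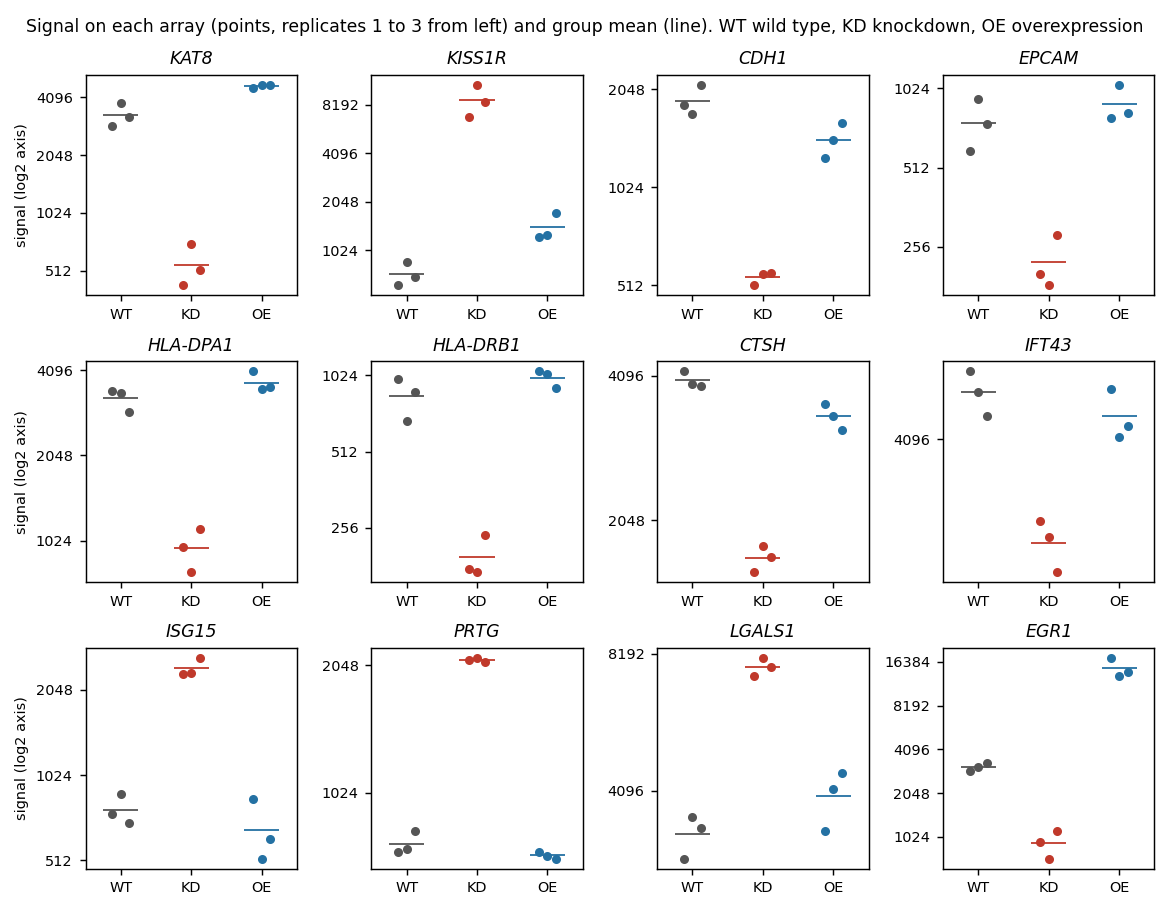
Signal of 12 genes on each of the 9 arrays, on a log2 axis, in wild type (WT), knockdown (KD) and overexpression (OE) cells; points are arrays in order of replicate number and lines are group means. In all 12 panels the knockdown points lie apart from the wild type points. For EGR1 and KAT8, and by a small margin for HLA-DPA1, the overexpression points lie on the other side of wild type.

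Genes of the mitochondrial respiratory chain and the mitochondrial ribosome fell more often than they rose, by small amounts. Of 41 genes of complex I, which passes electrons from NADH, 15 fell and 1 rose, with a median log2 fold change of -0.16. Of 18 ATP synthase genes 8 fell and 1 rose, with a median of -0.14. Of 33 genes of complexes II to IV 12 fell and 4 rose, with a median of -0.07, near the -0.04 over all genes tested. Of 75 mitochondrial ribosomal protein genes 27 fell and 5 rose, with a median of -0.15. NDUFV1, a catalytic subunit of complex I, read 18735.3, 18987.1 and 17058.9 in wild type and 11642.5, 12190.7 and 12102.7 after knockdown (log2 fold change -0.61, SE 0.06). NDUFB10, an accessory subunit, rose by 0.73 (SE 0.05), from 35367.7, 31876.6 and 33264.1 to 58717.5, 55203.6 and 52529.8. ATP5F1D, the delta subunit of ATP synthase, rose by 0.99 (SE 0.11). Both of these subunits rose against the direction of their lists. MRPS31 fell by 0.73 (SE 0.07), MRPL33 by 0.65 (SE 0.07) and COX15, an assembly factor of complex IV, by 0.52 (SE 0.08), while MRPS34 rose by 0.56 (SE 0.09). With no batch term the falls were 14 of the mitochondrial ribosome, 6 of complexes II to IV and 5 of ATP synthase. For ATP synthase there were also 5 when one of replicates 2 and 3 of wild type, or knockdown replicate 3, was omitted.

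The lysosome, proteasome and glycan synthesis lists shared this tilt. Of 46 lysosomal genes 21 fell and 4 rose, with a median log2 fold change of -0.18, and the 21 include 1 antisense transcript, ATP6V0E2-AS1. CTSH, a cathepsin protease, read 4181.6, 3941.2 and 3903.2 in wild type and 1599.8, 1808.1 and 1717.2 after knockdown (log2 fold change -1.23, SE 0.09). HEXA, the hexosaminidase that degrades gangliosides, fell by 1.09 (SE 0.10), LIPA, the acid lipase, by 0.71 (SE 0.09) and ATP6V1H, a subunit of the proton pump, by 0.71 (SE 0.07). CTSB, CTSC, ATP6V0C and MCOLN1 rose, by 0.24 to 0.44. TFEB, a transcription factor of lysosomal genes that was not chosen by rule, fell by 0.81 (SE 0.18), and its part in these values was not tested. Of 39 proteasome genes 16 fell and 3 rose, with a median of -0.06, near the -0.04 over all genes tested. PSMD4, a ubiquitin receptor, fell by 0.47 (SE 0.06). PSME1 and PSMB10, an activator and a catalytic subunit found in immunoproteasomes, rose by 0.67 (SE 0.06) and 0.81 (SE 0.15). The falls of the proteasome list were 6 with no batch term.

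Of 89 genes of glycan synthesis 26 fell and 6 rose. The falls held 3 genes of the glycosylphosphatidylinositol anchor, PIGC at -0.82 (SE 0.07), PIGL at -1.04 (SE 0.09) and PIGK at -0.63 (SE 0.07). The count of falls was 13 with no batch term and 15 without wild type replicate 1. Of 17 genes of cholesterol synthesis 7 fell and 1 rose, among them FDPS at -0.39 (SE 0.05) and INSIG1 at -0.52 (SE 0.07), and 3 fell with no batch term. The list median was -0.25 after knockdown and -0.39 after overexpression. Of 20 genes of glutathione metabolism and NRF2 targets 7 fell and 4 rose. GSTM2, a glutathione transferase, read 3903.4, 4024.3 and 3915.1 in wild type and 2182.3, 1846.4 and 1871.2 after knockdown (log2 fold change -1.01, SE 0.09). GSTM1 fell by 0.91 (SE 0.09) and GSTM4 by 1.25 (SE 0.24). The GSTM genes are close copies, so their probe sets may share transcripts. Only 4 of this list fell without knockdown replicate 1, and also with no batch term. Of 7 metallothionein genes, which bind zinc and copper, 3 fell and none rose, MT2A by 0.66 (SE 0.11) and MT1X by 0.63 (SE 0.11). MT1F lost its call in 3 of the 6 fits with an array omitted, and with no batch term 1 of the 7 fell.

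Noncoding transcripts named as antisense or intergenic held many of the larger falls. Of 382 tested, 86 fell and 19 rose, and 26 fell at least 2-fold against 4 that rose that much. Over all 12036 genes tested 231 fell and 96 rose by that much. The share that fell, 22.5%, is close to the background of 20.5%, while the 5.0% that rose lies below 12.9%. This list is dim, with 56 members at or above the 75th percentile of all probe sets in mean log2 signal. In the dimmest of the 4 bins of genes 5.4% rose, near the share here, and 13.4% fell, below it. ILRUN-AS1 read 1380.8, 1320.2 and 1284.9 in wild type and 512.1, 464.1 and 417.6 after knockdown (log2 fold change -1.52, SE 0.14). BAIAP2-DT fell by 1.07 (SE 0.10) and EP300-AS1 by 0.91 (SE 0.10). EPB41L4A-AS1 rose by 0.68 (SE 0.07) and LINC00632 by 1.26 (SE 0.21). The count of rises was 11 with no batch term, 10 without wild type replicate 1 and 12 without knockdown replicate 1. Of 359 genes named ZNF, most of them zinc finger factors, 60 (16.7%) fell and 18 (5.01%) rose, both below the background over all genes. Many of these genes are dim as well, with 130 at or above the same 75th percentile. ZNF573 fell by 1.32 (SE 0.15), ZNF585A by 1.07 (SE 0.14) and ZNF709 by 0.98 (SE 0.14), and ZNF581 and ZNF598 rose by 0.74 (SE 0.08) and 0.77 (SE 0.09). The falls numbered 33 with no batch term, 34 without wild type replicate 1 and 37 without either wild type replicate 2 or knockdown replicate 3. The rises numbered 9 with no batch term, 10 without knockdown replicate 2 and 11 without either wild type replicate 2 or knockdown replicate 3.

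Other lists with more falls than rises were smaller or moved less. Of 30 subunits of Mediator, the bridge between factors and RNA polymerase II, 9 fell and 2 rose, with MED30 at -0.66 (SE 0.09). Of 12 peroxins, which build peroxisomes, 4 fell and none rose, with PEX19 at -0.49 (SE 0.09), and 2 fell with no batch term. Of 160 genes named only as transmembrane proteins (TMEM) 48 fell and 15 rose, the rises being 9 with no batch term. Of 22 collagen genes 7 fell and 2 rose, with COL5A2 at -1.30 (SE 0.22), but the falls were 3 or 4 whichever of the 6 arrays was omitted and 4 with no batch term.

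Several single falls belong to none of these lists. GLRX, glutaredoxin, read 7469.7, 8898.5 and 8477.1 in wild type and 2050.6, 3357.9 and 3072.1 after knockdown (log2 fold change -1.58, SE 0.10). SPINK2, a protease inhibitor, fell by 1.67 (SE 0.16), C1orf54 by 1.62 (SE 0.11) and GSTZ1, an enzyme of tyrosine breakdown, by 1.59 (SE 0.14). NAP1L3, of the nucleosome assembly protein family, fell by 1.37 (SE 0.08), FKBP1B, which binds calcium release channels, by 1.30 (SE 0.08) and GRK3, a kinase of activated G protein-coupled receptors, by 1.30 (SE 0.09). Each kept its call whichever of the 6 arrays was omitted.

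KISS1R, the receptor of the hormone kisspeptin, was the gene with the largest rise. It read 624.4, 869.9 and 698.4 in wild type and 6844.3, 10927.0 and 8496.2 after knockdown, an 11.9-fold difference with no overlap (log2 fold change 3.57, SE 0.14, limma adjusted p = 5.84e-08). The overexpression arrays read 1239.7, 1280.9 and 1751.4, which lay above wild type (log2 difference 0.96, limma adjusted p = 0.00261) and below knockdown (knockdown minus overexpression 2.61, SE 0.14). Of 70 tested G protein-coupled receptor genes 8 rose and 11 fell, shares near the background. The chemokine receptor CXCR4 rose by 0.60 (SE 0.08) and LGR5 by 0.78 (SE 0.15), while GPR160 fell by 0.92 (SE 0.06) and the lysophosphatidic acid receptor LPAR1 by 1.07 (SE 0.16). The rises of this list were 5 without wild type replicate 3 and 4 with no batch term.

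HOX genes rose as a group. They encode transcription factors that set position along the body axis, and the list also holds their TALE cofactors. Of 31 tested 22 rose and none fell, with a median log2 fold change of 0.61. HOXC6 read 15882.8, 19724.8 and 21162.2 in wild type and 27244.4, 36552.8 and 34233.0 after knockdown (log2 fold change 0.79, SE 0.07). HOXC11 read 1302.4, 1704.7 and 1579.7 against 2545.6, 3151.5 and 2882.5 (log2 fold change 0.91, SE 0.09). HOXD11 rose by 0.84 (SE 0.09) and HOXB5 by 0.86 (SE 0.09). The probe set annotated to MIR10A, which lies among the HOXB genes, rose by 1.24 (SE 0.15). It reads a longer transcript, and the mature microRNA was not measured here. After overexpression the list median was 0.12.

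Targets of p53, the transcription factor of the DNA damage response, rose in 19 of 24 tested members and fell in none, with a median log2 fold change of 0.51. SESN2, a sestrin that restrains growth signalling under stress, read 7433.7, 5699.1 and 4847.9 in wild type and 12497.9, 9983.1 and 9882.5 after knockdown (log2 fold change 0.86, SE 0.09). TP53INP1 rose by 0.75 (SE 0.09) and BAX, a pore-forming apoptosis protein, by 0.48 (SE 0.06). CDKN1A, which encodes the cell cycle inhibitor p21, rose by 0.40 (SE 0.07), and after overexpression by 0.60 (limma adjusted p = 4.37e-04). In the lists of damage signalling and repair genes the shares that rose, 6.9% to 19.2%, lay on both sides of the background of 12.9%. The shares that fell, 8.33% to 16.7%, lay below the background of 20.5%. Of 26 genes of damage signalling 5 rose and 3 fell, of 30 of homologous recombination and the Fanconi pathway 3 rose and 5 fell, of 12 of end joining 2 rose and 1 fell, and of 29 of excision and mismatch repair 2 rose and 3 fell. The helicase gene RECQL4 rose by 1.19 (SE 0.10), from 2941.8, 1989.7 and 2094.0 to 5896.5, 4506.3 and 5520.5.

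Genes of G2/M and mitosis rose in 21 of 33 members and fell in none, with a median log2 fold change of 0.27. ESPL1, the protease that separates sister chromatids, rose by 0.43 (SE 0.06), CDCA8, a subunit of the chromosomal passenger complex, by 0.41 (SE 0.07) and the checkpoint kinase gene BUB1 by 0.34 (SE 0.06). With no batch term 10 rose. Genes of G1/S and DNA replication were split, with 9 of 48 higher and 12 lower. The licensing factor gene CDT1 rose by 0.67 (SE 0.10), and GINS1, a part of the replicative helicase, fell by 0.51 (SE 0.06). With no batch term these were 3 and 3. The rises were 4 without either wild type replicate 1 or wild type replicate 2 and 5 without knockdown replicate 3. The falls were 6 without wild type replicate 2, 7 without either wild type replicate 3 or knockdown replicate 2 and 5 without knockdown replicate 3.

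Mitotic genes are known for a CCAAT box close to the element TTTGAA in their promoters. TTTGAA was in 61.5% of the promoters of the tested G2/M genes and ATTGG in 84.6% (22 of 26), against 9.39% and 37% of those of all genes tested and 15.4% and 35.7% of all in the table, searched on both strands. The list was chosen by function, so these shares describe mitotic genes and not only those that rose. Both elements, which share no bases here, are in capitals in the promoters of CDC20 (chr1:43358731-43359030, plus strand), which activates the anaphase-promoting complex, and ESPL1 (chr12:53268049-53268348, plus strand).
CDC20: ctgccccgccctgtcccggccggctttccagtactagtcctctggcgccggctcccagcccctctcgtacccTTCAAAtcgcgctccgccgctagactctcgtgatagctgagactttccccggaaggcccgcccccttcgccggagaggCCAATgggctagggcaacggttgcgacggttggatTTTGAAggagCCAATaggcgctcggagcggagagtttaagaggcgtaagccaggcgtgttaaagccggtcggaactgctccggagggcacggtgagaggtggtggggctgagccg
ESPL1: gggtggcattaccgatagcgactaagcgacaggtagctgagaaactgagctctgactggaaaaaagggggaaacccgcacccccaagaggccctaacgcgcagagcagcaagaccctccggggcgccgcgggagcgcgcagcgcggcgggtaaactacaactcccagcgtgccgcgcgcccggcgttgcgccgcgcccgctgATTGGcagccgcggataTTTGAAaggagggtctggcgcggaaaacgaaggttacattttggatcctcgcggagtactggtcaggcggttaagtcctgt
CDC20 read 14110.4, 12034.3 and 11278.5 in wild type and 21468.3, 19053.2 and 19184.6 after knockdown, with no overlap. Over all genes, the median G and C content of the promoter was 67.7% among those that rose, 63.7% among those that fell and 66.3% among those not called.

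**Figure D4:**
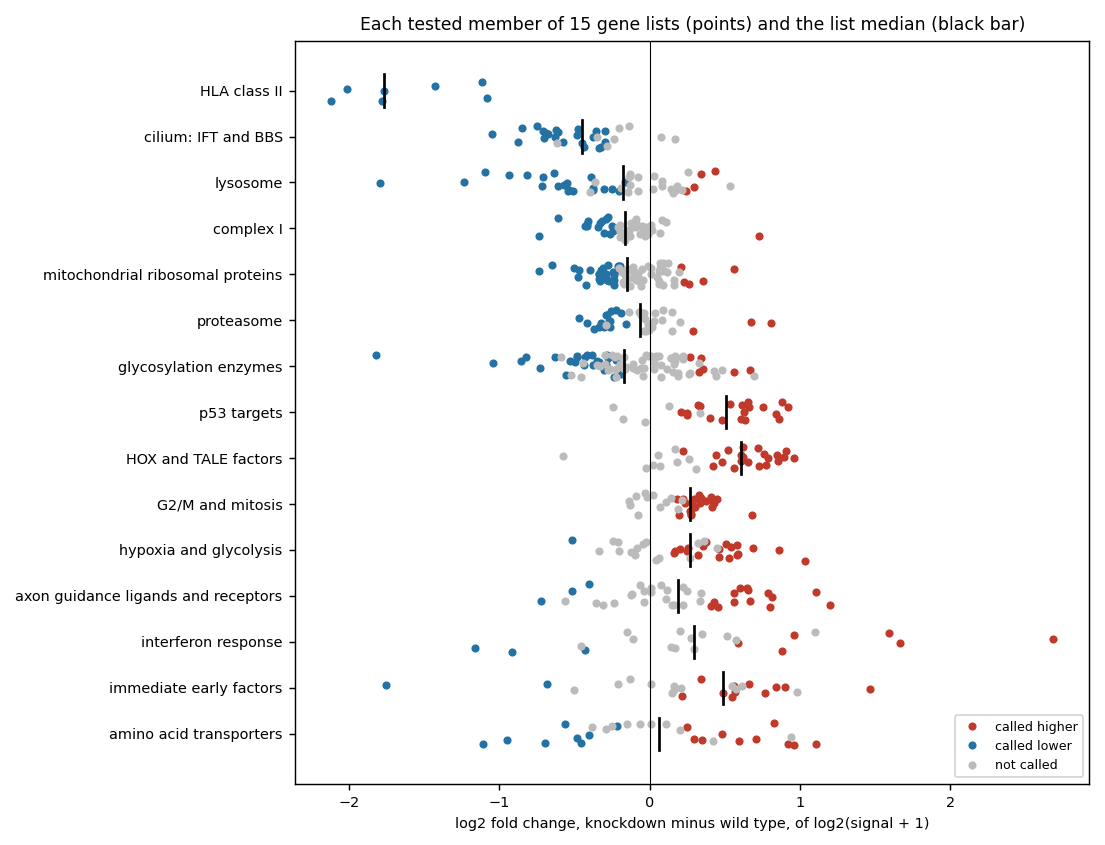
Log2 fold change (knockdown minus wild type) of each tested member of 15 lists, red where called higher, blue where called lower and grey where not called; black bars are list medians. HLA class II genes lie between -2.12 and -1.08, while the interferon, immediate early and amino acid transporter lists hold members on both sides of 0.

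Hypoxia and glycolysis genes rose in 19 of 35 members, and BNIP3L fell. BHLHE40, a repressor induced by low oxygen, rose by 1.03 (SE 0.09). TPI1, an enzyme of glycolysis, read 42205.4, 44113.8 and 44784.7 in wild type and 63460.4, 64720.0 and 68102.0 after knockdown (log2 fold change 0.58, SE 0.06). VEGFA, the vascular growth factor, rose by 0.46 (SE 0.07).

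Genes of cell guidance and contact rose more often than the background. Of 38 axon guidance genes 14 rose and 3 fell. FLRT3, a membrane protein that binds ROBO and UNC5 receptors, read 2015.8, 2236.6 and 2465.7 in wild type and 5132.6, 5155.3 and 5080.0 after knockdown (log2 fold change 1.20, SE 0.09). After overexpression it fell by 0.88, to 1118.6, 1214.6 and 1307.1. ROBO2, a receptor of SLIT ligands, rose by 1.10 (SE 0.16), SEMA3C by 0.79 (SE 0.12) and SEMA6D by 0.81 (SE 0.13). PLXNC1 fell by 0.72 and ROBO3 by 0.52. The rises numbered 9 with no batch term, without wild type replicate 1 or without knockdown replicate 3. Of 18 Eph receptors and ephrins 7 rose and 1 fell. EFNA2, an ephrin ligand, rose by 0.95 (SE 0.13), EFNA1 by 0.76 (SE 0.13) and the receptor gene EPHA7 by 0.47 (SE 0.08).

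Members of the TGF-beta, NOTCH and FGF pathways also rose above the background share. Of 50 TGF-beta and BMP genes 15 rose and 5 fell. The coreceptor TGFBR3 read 4905.4, 4020.1 and 4207.9 in wild type and 8287.8, 9346.0 and 7328.0 after knockdown (log2 fold change 0.92, SE 0.09). The pseudoreceptor BAMBI rose by 0.78 (SE 0.08), SMURF2, a ubiquitin ligase for receptors and SMADs, by 0.59 (SE 0.06) and ID1, a BMP target, by 0.71 (SE 0.09). The signalling receptor TGFBR1 fell by 0.54 (SE 0.08), ACVR1C by 1.28 (SE 0.23) and the ligand subunit INHBB by 1.02 (SE 0.24). Of 28 NOTCH genes 8 rose and 1 fell, with the ligand JAG2 at 0.60 (SE 0.08) and the targets HES1 at 0.46 (SE 0.10) and HES7 at 1.05 (SE 0.21). Of 41 genes of the FGF and receptor tyrosine kinase pathway 10 rose and none fell. The phosphatase gene DUSP5 rose by 1.15 (SE 0.18) and the ETS factor ETV1 by 1.12 (SE 0.16). The median log2 fold change was 0.22 after knockdown and 0.10 after overexpression in the TGF-beta and BMP list. These medians were 0.14 and 0.02 in the NOTCH list, and 0.15 and 0.23 in the FGF list. Without knockdown replicate 2 the rises were 5 in the NOTCH list and 6 in the FGF list, and the FGF list also had 6 with no batch term.

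Immediate early genes, which cells switch on soon after a stimulus, rose more often than the background, with EGR1 and MYC falling. Of 25 tested 11 rose and 2 fell, with a median log2 fold change of 0.49. The median after overexpression was 0.81. EGR1, a zinc finger factor induced by growth signals, read 2902.0, 3105.6 and 3299.4 in wild type, 946.4, 725.9 and 1122.1 after knockdown and 17289.5, 13040.2 and 13908.5 after overexpression. Knockdown minus overexpression was -4.0 on the log2 scale (limma adjusted p = 1.71e-08). FOSL1, an AP-1 subunit, rose by 1.46 (SE 0.21) from 218.6, 174.1 and 193.0 to 561.1, 452.8 and 611.4, and it also rose after overexpression, by 1.22. IER2 and DUSP1 rose by 0.66 (SE 0.07) and 0.57 (SE 0.08).

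Interferon response genes went in both directions, with rises above the background share and falls below it. Of 21 tested 6 rose (28.6%, against 12.9% over all genes) and 3 fell (14.3%, against 20.5%). The median log2 fold change was 0.29 after knockdown and 0.16 after overexpression. A probe set of IFIT3, whose signals are given further below, rose by 2.68. ISG15, a ubiquitin-like modifier, read 744.8, 878.4 and 693.3 in wild type, 2319.8, 2353.1 and 2645.2 after knockdown and 842.1, 518.8 and 607.3 after overexpression. IRF9, the DNA-binding subunit of the interferon-activated complex, rose by 0.96 (SE 0.16) and IFI6 by 0.59 (SE 0.10). SAMD9 fell by 1.16 (SE 0.23), and HERC6 by 0.91 (SE 0.19). Of 9 genes that sense double-stranded RNA none rose and 2 fell. The knockdown cells alone received small interfering RNA, and its part in these values was not tested.

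Amino acid transporters moved in both directions, with 10 of 28 higher and 8 lower, or 7 and 4 with no batch term. SLC7A5, the exchanger of large neutral amino acids, read 4935.7, 3474.1 and 3919.2 in wild type and 8438.8, 8687.7 and 9104.2 after knockdown (log2 fold change 1.10, SE 0.11). Its partner chain SLC3A2 rose by 0.83 (SE 0.10), the glutamate transporter SLC1A1 by 0.92 (SE 0.08) and the creatine transporter SLC6A8 by 0.96 (SE 0.10). The cystine transporter SLC7A11, which pairs with the same chain, fell by 0.70 (SE 0.10), and SLC7A3, a carrier of cationic amino acids, by 1.11 (SE 0.14).

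Cytosolic ribosomal protein genes mostly were not called, with 2 of 60 higher and 10 lower. The largest changes were in paralogs of the standard subunits. RPL22L1 read 34896.7, 36692.7 and 40363.7 in wild type and 16567.3, 18320.8 and 18754.6 after knockdown (log2 fold change -1.06, SE 0.06), and RPL39L fell by 0.80 (SE 0.08). RPS27L, a p53 target, rose by 0.89 (SE 0.05). Without wild type replicate 1 the falls numbered 34, without wild type replicate 3 they numbered 5, and without wild type replicate 2 and without knockdown replicate 3 they numbered 6 and 5.

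Other rises outside these lists included PTPRO, a receptor tyrosine phosphatase of kidney podocytes, which read 8936.6, 6044.9 and 7311.6 in wild type and 17147.9, 16320.8 and 21211.7 after knockdown (log2 fold change 1.30, SE 0.14). LGALS1, galectin 1, rose by 1.22 (SE 0.08), CFD, complement factor D, by 1.27 (SE 0.12), the vesicle GTPase gene RAB26 by 1.28 (SE 0.14) and the zinc finger factor gene MAZ by 1.17 (SE 0.10). Each kept its call whichever of the 6 arrays was omitted.

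No probe set crossed from dim to bright or back by the rule set for it, which asked for all 3 arrays of one group below their array's median and all 3 of the other above their 75th percentile, over 54613 probe sets. With the 65th percentile 1 rose past it, IFIT3, and 1 dropped, GNG2. With the 60th percentile, a limit chosen after seeing the data, EPHB3 joined the first and MEGF10 the second. IFIT3, an interferon-induced protein, read 177.3, 145.1 and 193.9 in wild type and 1070.9, 1199.6 and 1046.1 after knockdown. GNG2, a G protein gamma subunit, read 1083.6, 857.5 and 876.3 against 174.8, 169.0 and 191.7. MEGF10, a receptor for engulfment of dying cells, read 400.3, 613.6 and 523.0 against 57.7, 95.9 and 55.1. The Eph receptor gene EPHB3 read 69.1, 174.0 and 104.6 against 518.3, 517.7 and 424.7.

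With the 55th percentile, also chosen after seeing the data, 21 probe sets (11 named genes) crossed upward and 51 (45 named genes) downward. For 6 of the 11 and 20 of the 45 genes only a dimmer probe set crossed and the brightest did not, KAT8 among the 20, so a crossing need not be one of the gene. L1CAM, a neural adhesion protein, crossed upward, at 122.9, 104.6 and 171.8 in wild type and 420.1, 541.7 and 410.5 after knockdown. S100A10 crossed upward as well, at 123.3, 154.3 and 148.3 against 645.9, 517.9 and 382.1, read by the dimmer of its probe sets. The brighter one read 20424.2, 17981.1 and 19531.8 in wild type and rose by 0.55 (SE 0.07). ENPP2, the enzyme that makes lysophosphatidic acid, crossed downward, at 365.7, 504.0 and 469.0 against 167.4, 96.5 and 89.4. NME5, a protein of cilia and flagella, crossed downward, at 377.8, 458.8 and 510.0 against 108.6, 141.9 and 16.6. These are chosen from the values and carry no test. Signals below the median are near the limit of these arrays, so a low value is not an absence of transcript.

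**Figure D5:**
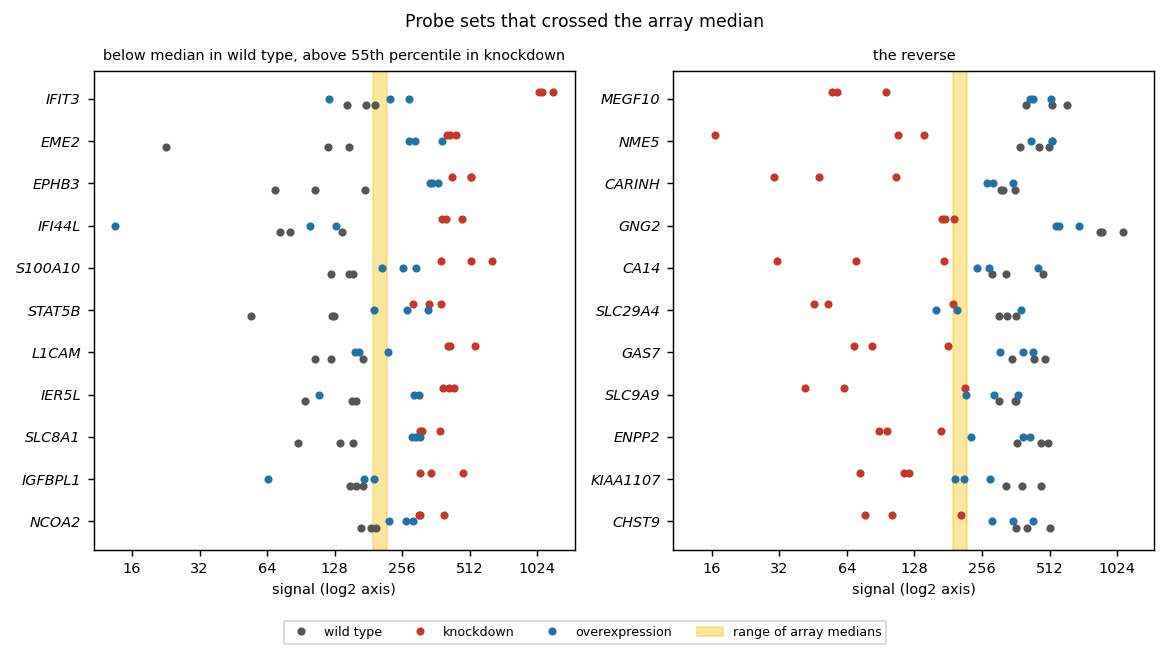
Signal on each array, on a log2 axis, of the probe sets, labelled by gene, that crossed the array median upward in 11 named genes after knockdown (left) and of the first 11 by size that crossed downward (right), with the 55th percentile as the upper limit. The yellow band is the range of array medians, 189.4 to 219.2; knockdown points lie to its right on the left panel and to its left or within it on the right panel.

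For 6351 genes 2 or more probe sets were tested, and they did not always move alike. In 3087 of these at least 1 probe set was called, in 316 all were called higher, in 373 all were called lower, and in 61 calls went in both directions. HNRNPD, an RNA-binding protein whose transcript has alternative ends, had 4 probe sets called lower and 1 higher. The brightest of those that fell had a log2 fold change of -0.35 (SE 0.07), and the one that rose had 0.57 (SE 0.07). For NASP, a histone chaperone, 2 were called lower and 1 higher. For ATP5PO, a stalk subunit of ATP synthase, the bright probe set had a log2 fold change of -0.25 and the dim one of 0.91. Which transcript ends these probe sets read was not analysed here.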

How the data were processed

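Biotin-labelled RNA from HEK293 cells was hybridised to oligonucleotide arrays, 1 per sample, per the labels' protocols. The authors deposited 1 linear intensity per probe set and array. The submitters' processing notes name MAS5 for this step, with no version. Every deposited column had the same 2% trimmed mean of 1500.2. MAS5 treats each array alone, and dim signals vary more. Probe sets were named from the platform annotation: of the 54613 that are not controls, 41091 had 1 symbol, 1801 several and 11721 none. RefSeq tables of GRCh38.p14 supplied promoters.

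The signal was analysed as log2(signal + 1) by lmFit and trended eBayes of limma (version 3.58.1, R version 4.3.3) over all 9 arrays, with group and a term for the replicate 1 arrays, in which the added poly-A controls were dimmer (798 to 896, against 1720 to 2101 in the others). This left 5 residual degrees of freedom. Tests were two-sided with Benjamini-Hochberg adjustment over 27307 probe sets. Same-numbered knockdown and wild type arrays deviated together (r = 0.362, 0.144 and 0.137), each above the limit of 0.1 set for pairing, so the replicate number was also used as a block. Wild type 3 with knockdown 2 gave 0.18, so beyond replicate 1 the shared numbers did not stand out. Alternatives were no batch term, the 6 arrays alone, a pseudocount of 64, other filters, quantile normalization, no trend and each of the 6 arrays left out. Figures used matplotlib 3.10.9.

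The members, the 110 gene lists and the rules were chosen with earlier results of these data known, so no list count is independent evidence. Genes were named by rule: KAT8, KISS1R, CDH1, the 20 largest rises and 20 largest falls with groups apart and a bright higher group, up to 6 called members of smallest p of each list, members called against their list, genes with a probe set that crossed the median, and up to 6 genes with calls in both directions. Not every gene that qualified is described. VIM, CDH2, TFEB, TWIST1, SNAI2, RFX5, RFXAP, CDKN1A, TP53INP1, BAX, HLA-E, IFT57, IFT70A, IFT70B, IFT74, IFT122 and BBS10 were added for their known roles or promoters, some after their values were seen.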

Additional observations from a re-analysis of the deposited data

How the results depend on the processing

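The log2 fold changes of KAT8, KISS1R, CDH1 and the genes that met the rules for the largest changes or the lists kept their sign. This holds for the alternatives in which they were tested. Genes named only for a crossing or for calls in both directions were not checked in this way. Overexpression values were not recomputed. The balance of rises and falls in a list could turn: G protein-coupled receptors had 6 and 4 with the 75th percentile filter, and end joining had 0 and 1 with no batch term. With no term for the replicate 1 arrays 4289 probe sets were called in place of 7706, and a replicate block (the number as a factor) gave 7637. Over the 6 fits that left out 1 array the count ran from 5562 to 6232, and over the remaining alternatives from 5487 to 7804. KAT8, KISS1R and CDH1 kept their calls throughout. Probe sets that crossed the array median numbered 0 by the rule, 2 with the 65th percentile, 4 with the 60th and 72 with the 55th, the last 2 limits chosen after seeing the data. Of 762 genes that met the rules for the largest changes or the lists, 238 lost their call without the batch term. With the replicate block 14 did, among them COL1A1, SOX2 and MRPL20. The replicate block changed the count of calls by less than 1.5 times. The number of arrays, 3 per group, limits the precision.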
